A study of Mus musculus with 8 samples.

Results

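The cells described here are the tumour cells of allografts grown in the brain and under the skin from the line N2N1G, derived from mouse small cell lung cancer. A cell was taken as a tumour cell if it had at least 500 detected genes, at most 10% of its unique molecular identifiers (UMIs, each counting 1 captured transcript) on mitochondrial genes, and at least 0.2% of its UMIs on eGFP and Mycl together. The rule gave 21696 tumour cells, 6478 from 2 brain allografts and 15218 from 3 subcutaneous allografts, out of 24618 cells deposited for these 5 libraries and 38460 for the whole series. All tumours came from this 1 line and were started with the same number of cells, and they were taken after 3 weeks. Brain and subcutaneous tumours were both started by injection straight into the tissue, so the 2 groups differ in the organ and not in the route. A further 3 liver libraries, whose cells were given through the tail vein, entered the fit for the estimate of spread only. Living single cells were sorted before droplet 3′ RNA sequencing. The strain, sex and age of the host mice, and whether each numbered allograft came from its own mouse, are not given in the sources used here. The p-values below therefore measure the spread between libraries, which may be partly technical.

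Small cell lung cancer is a neuroendocrine cancer with frequent brain metastases, and its cells make secretory granules and many neuronal proteins. When oxygen is low, HIF transcription factors escape hydroxylation and destruction, bind a short DNA core in the control regions of their targets and raise glycolytic enzymes, glucose handling, blood vessel growth factors and collagen-modifying enzymes. Interferons, which are secreted by infected or immune cells, act through JAK kinases and STAT and IRF factors on a different DNA element and raise antiviral genes and, with them, parts of the MHC class I pathway that shows peptides to T cells. Amino acid shortage and other stresses raise another set of genes through the transcription factor ATF4.

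The 5 libraries held 2418 and 4060 tumour cells in brain and 4150, 6276 and 4792 in subcutaneous tissue, with 21689091 to 62047017 UMIs and a median of 7972 to 10214 UMIs per cell. The cells carried the neuroendocrine marks of the line. Chga, which encodes the granule protein chromogranin A, was at 472 and 444 CPM (UMIs of the gene scaled to a common total of tumour-cell UMIs per library) in brain and 383, 550.1 and 508 CPM in subcutaneous cells, and at 24.1 and 22.9 CPM in the reporter-low cells of the brain libraries, which had under 0.1% of their UMIs on eGFP and Mycl. Between 29 and 86 cells a library lay just outside the rule, at 0.1% to 0.2%, and between 62 and 165 lay just inside it, at 0.2% to 0.3%. The genes of the rule itself were at 3360.0 and 3503 CPM in brain and 2569, 2555 and 2551 CPM in subcutaneous cells for eGFP, and at 5163 and 4158 and 4026, 6341 and 6469 CPM for Mycl. Tumour cells made up 71.6% and 92.04% of kept cells in brain and 93.8%, 98.0% and 98.9% in subcutaneous tissue. That difference of means of -15.1 percentage points had a two-sided exact permutation p of 0.1, the smallest that 2 against 3 libraries can give, and was -4.87 points without brain replicate 1 and -25.3 points without brain replicate 2.

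The libraries differed in host RNA: 81.5% and 28.5% of the tumour cells of the brain libraries carried a UMI of any of 8 macrophage genes, against 21.1%, 1.05% and 1.02% in the subcutaneous libraries. Scaled on these genes, the profile of reporter-low cells made up 1.95% of the tumour-cell UMIs in brain replicate 1, 0.363% in brain replicate 2 and 0.220% in subcutaneous replicate 1, and was not scaled in the other 2 subcutaneous libraries, which held 44 and 22 reporter-low cells. These shares are medians over the 8 genes, which ran from 0.719% to 2.51% in brain replicate 1. Subcutaneous replicate 1 stood apart from the others of its group. On a first principal component that held 66.1% of the variance, it lay at 24.8, between the brain libraries at 95 and 72.3 and the other subcutaneous libraries at -44.1 and -44.2. From 21 to 49 cell barcodes were shared by any pair of libraries.

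Across all genes, 13931 were tested and 2099 (15.1%) differed between brain and subcutaneous tumour cells at an adjusted p under 0.05 by edgeR's quasi-likelihood test, 1245 higher in brain (8.94%) and 854 lower (6.13%). All 2099 had brain libraries wholly above or wholly below the 3 subcutaneous ones, so that a lack of overlap adds nothing to a call. Both brain libraries lay above all 3 subcutaneous ones in 24.5% of all tested genes and below them in 22.3%. The median log2 fold change of all tested genes was 0.00 to 2 decimals, and 1028 of the called genes differed by at least 2-fold, 800 of them higher in brain and 228 lower. Subcutaneous replicate 1 was the nearest to brain of its group for 976 of the 1245 higher genes and 674 of the 854 lower genes. The number of calls changed with the libraries in the fit. Of the subcutaneous libraries, leaving out replicate 1 gave 4754 calls, replicate 2 gave 701 and replicate 3 gave 659. Fewer than 2099 genes were also called without either brain library, which leaves 1 in its group. With only the 5 libraries compared in the fit, 728 were called. Why the counts moved was not tested. Of the 2099 calls, 248 held whichever of the 5 libraries was left out, 191 higher and 57 lower. In 517 of the 1245 higher genes the reporter-low cells of a brain library had over 3 times the level of its tumour cells, and in the other 728 they did not.

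Genes of the hypoxia response were lower in brain tumour cells. Of 28 measured, 23 fell and 2 rose, with a median log2 fold change of -1.50, beside 6.13% of all tested genes that fell and a median of 0.00 over them. The falls reached the enzymes that hydroxylate collagen, the oxygen sensor Egln3, the mitophagy receptor Bnip3 and the acid-handling enzyme Car9. Over the 25 called genes the ratio of brain replicate 1 to brain replicate 2 had a median of 1.06. The fall held in 12 genes whichever library was left out, namely Pdk1, Car9, Ak4, Adm, Bnip3, P4ha1, Ankrd37, Ero1l, Higd1a, P4ha2, Egln3 and Fam162a, while 15 of the list fell without brain replicate 1 and 12 without brain replicate 2.

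Members of this list can be compared with the DNA core ACGTG that HIF factors recognise. The core, on either strand (its other strand reads CACGT), stood in the 250 bases before the RefSeq transcription start of 18.5% of 27025 genes in the RefSeq promoter table of build GRCm38.p6 and of 24.7% of the tested genes with an entry. It stood before 13 of the 20 hypoxia genes with an entry, 11 of 18 called ones and 2 of 2 others. Promoters of 3 called genes with a large fall, a match and no annotated exon in the window are shown, 5′ to 3′ on the gene's strand, with the core in capitals. P4ha2 lies at chr11:54100674-54100923 (plus strand), Egln3 at chr12:54203875-54204124 (minus strand) and P4ha1 at chr10:59323046-59323295 (plus strand).
P4ha2: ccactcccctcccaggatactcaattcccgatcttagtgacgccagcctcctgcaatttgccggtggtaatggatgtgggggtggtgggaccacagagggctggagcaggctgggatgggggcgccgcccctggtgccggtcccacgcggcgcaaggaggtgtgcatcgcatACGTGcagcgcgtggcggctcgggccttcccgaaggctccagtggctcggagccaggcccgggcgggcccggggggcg
Egln3: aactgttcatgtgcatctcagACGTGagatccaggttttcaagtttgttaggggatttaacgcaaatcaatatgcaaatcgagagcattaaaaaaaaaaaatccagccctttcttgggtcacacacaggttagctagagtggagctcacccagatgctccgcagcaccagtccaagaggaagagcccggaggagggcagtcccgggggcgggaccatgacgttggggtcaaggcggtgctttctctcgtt
P4ha1: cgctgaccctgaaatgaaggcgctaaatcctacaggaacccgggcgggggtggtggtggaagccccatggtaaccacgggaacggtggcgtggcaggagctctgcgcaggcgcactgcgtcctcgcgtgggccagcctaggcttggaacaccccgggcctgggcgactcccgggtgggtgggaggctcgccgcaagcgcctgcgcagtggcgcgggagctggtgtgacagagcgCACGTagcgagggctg
The starts are those of the RefSeq table and can differ from the ends of the GENCODE genes given below; that of P4ha2 lies inside its GENCODE gene. The match lay 73 bases before the RefSeq start in P4ha2, 224 in Egln3 and 11 in P4ha1, where it was on the other strand. A match is a description of these letters and was not tested as a binding site.

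P4ha2 and P4ha1 encode the catalytic subunits of the prolyl hydroxylase that lets collagen fold. P4ha2 (mm10 chr11:54100095-54131665) was at 2.398 and 2.66 CPM in the brain libraries and 18.97, 22.6 and 20.3 CPM in the subcutaneous libraries. The 2 brain values lay close together and far under every subcutaneous value, a fall of 8.12-fold (log2 -3.02, SE 0.15, edgeR adjusted p = 0.000116). P4ha1 was at 12.5 and 14.8 CPM in brain and 48.2, 71.7 and 60.2 CPM in subcutaneous cells (log2 -2.14, SE 0.18, adjusted p = 0.000465), again without overlap. Liver cells held P4ha2 at 1.802, 1.71 and 1.96 CPM, near the brain level.

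Egln3 encodes a HIF prolyl hydroxylase that is itself raised by HIF. It was at 10.2 and 9.95 CPM in brain and 59.7, 88.5 and 75.5 CPM in subcutaneous cells (mm10 chr12:54178981-54203860; log2 -2.89, SE 0.18, adjusted p = 0.000165). A sum over cells cannot tell fewer cells with a transcript from fewer transcripts in each. Among tumour cells thinned to 3000 UMIs, 3.095 and 2.47% had an Egln3 UMI in brain and 14.5, 19.8 and 17.1% in subcutaneous tissue, against 1.54 and 4.59% of reporter-low cells of the brain libraries thinned alike. The brain tumour shares lay within the range of the reporter-low shares, and the subcutaneous shares above it. Liver cells lay between, at 29.3, 25.1 and 26.9 CPM.

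Bnip3, which marks mitochondria for removal, was at 81.2 and 85.6 CPM in brain and 362, 475 and 377 CPM in subcutaneous cells (mm10 chr7:138890836-138909519; log2 -2.28, SE 0.16, adjusted p = 0.000228). After thinning, 16.3 and 17.6% of brain and 41.9, 50.5 and 43.6% of subcutaneous tumour cells had a UMI, and 15.2 and 18.9% of reporter-low brain cells. Car9, a carbonic anhydrase at the cell surface, was at 0.0922 and 0.362 CPM in brain and 6.16, 5.82 and 5.86 CPM in subcutaneous cells (log2 -4.55, SE 0.49, adjusted p = 0.00138). Its 3 subcutaneous values were nearly equal, and both brain libraries were under 1 CPM. The vessel growth factor Vegfa was at 9.87 and 4.86 CPM in brain and 35.7, 24.7 and 22.2 CPM in subcutaneous cells (log2 -1.93, adjusted p = 0.0175). The peptide hormone Adm was at 0.968 and 0.258 and 3.96, 6.87 and 5.86 CPM (log2 -3.29). Ak4, a mitochondrial adenylate kinase, was at 5.67 and 4.55 and 20.2, 32.6 and 28.8 CPM (log2 -2.43). None of these 4 genes had overlapping groups.

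The exceptions on the hypoxia list were Lox and Loxl2, which encode enzymes that crosslink collagen and rose in brain. Loxl2 was at 18.6 and 13.3 CPM in brain and 8.39, 4.98 and 5.26 CPM in subcutaneous cells (log2 1.36, adjusted p = 0.00915), and neither was called without brain replicate 1. Slc2a1, Egln1 and Kdm4b did not pass the test. Slc2a1, the glucose transporter GLUT1, was at 63.4 and 61.8 CPM in brain and 45.3, 76.9 and 63.5 CPM in subcutaneous cells (log2 0.01, SE 0.21, adjusted p = 0.979). Its brain values lay within the subcutaneous range.

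Glycolysis genes fell with them. Of 22 measured, 15 fell and 3 rose, beside 6.13% of all tested genes that fell and 8.94% that rose. The median log2 fold change was -0.99. The falls ran along the pathway from Hk2 and Pfkfb3 through Aldoa, Pgk1 and Eno1 to Pkm, Ldha and the lactate exporter Slc16a3. The HIF core stood before 10 of the 21 members with a promoter entry, 9 of the 17 called and 1 of the other 4. Without brain replicate 1 the calls were 10 lower and 0 higher, and without brain replicate 2 they were 11 lower and 0 higher. The lower calls that held whichever library was left out were Pfkfb3, Pdk1, Pgk1, Hk2, Gpi1, Ldha, Aldoa, Slc16a3 and Pgam1, where Pdk1 is on both lists.

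Aldoa, which splits fructose bisphosphate, was at 289.5 and 276 CPM in brain and 1057, 1345 and 1063 CPM in subcutaneous cells (log2 -2.03, SE 0.15, adjusted p = 0.00026). The groups were far apart, and reporter-low cells of the brain libraries, at 642 and 769.7 CPM, were above the brain tumour cells and under the subcutaneous ones. Thinned tumour cells with an Aldoa UMI made up 38.4 and 36.8% in brain and 69.02, 80.2 and 72.3% in subcutaneous tissue, against 67.2 and 71.4% of reporter-low brain cells. Ldha, which makes lactate from pyruvate, was at 691 and 906 CPM in brain and 1544, 2179 and 1914 CPM in subcutaneous cells (log2 -1.24, adjusted p = 0.00351). Pkm, a pyruvate kinase, was at 984 and 1110.0 and 1611, 2418 and 2156 CPM (log2 -0.98, adjusted p = 0.00961). Hk2, the inducible hexokinase, was at 2.398 and 1.83 and 10.6, 6.83 and 6.05 CPM (log2 -1.90). Pfkfb3, which makes the activator of phosphofructokinase, was at 7.700 and 6.54 and 26.1, 33.9 and 27.7 CPM (log2 -2.05). Gapdh moved less, from 2527, 2715 and 2587 CPM in subcutaneous to 1728 and 2030.0 CPM in brain cells (log2 -0.48). In each of these 6 genes every brain value was under every subcutaneous value.

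The 3 glycolysis genes that rose in brain were low in both sites. Pfkm, the muscle form of phosphofructokinase, was at 4.47 and 5.04 CPM in brain and 1.73, 0.612 and 0.771 CPM in subcutaneous cells (log2 2.21, adjusted p = 0.00965). Slc2a3, the neuronal glucose transporter GLUT3, was at 4.196 and 4.004 and 1.44, 0.548 and 0.2697 CPM (log2 2.46, adjusted p = 0.0192). The other was Pfkfb4. Hk1, Aldoc, Eno2 and Slc2a1 did not pass the test.

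**Figure D1:**
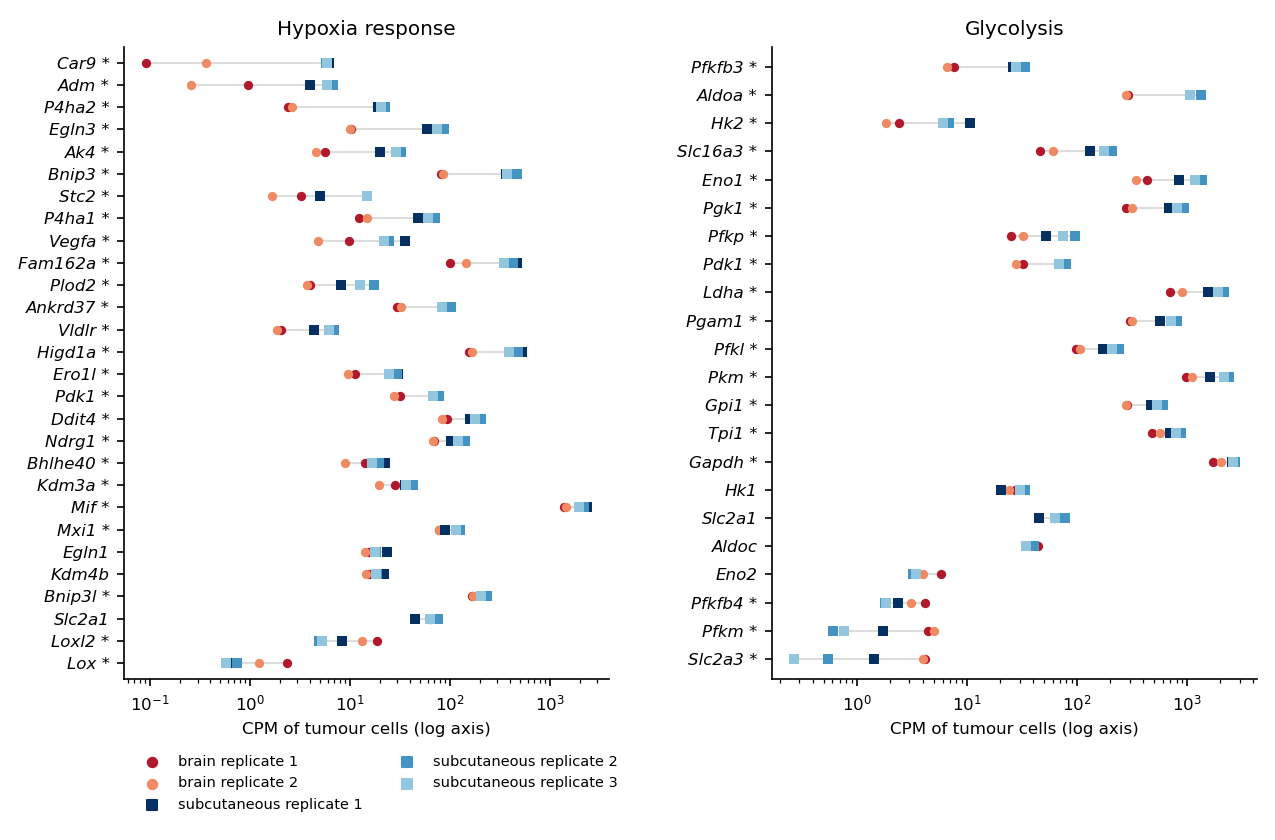
Level of each measured hypoxia (left) and glycolysis (right) gene in tumour cells, in CPM on a log axis, with 1 point per library (circles brain, squares subcutaneous) and a line over the range; an asterisk marks genes called by edgeR. Brain points lie left of the subcutaneous points for the 23 and 15 called lower genes, and right of them for 2 and 3.

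Targets of the amino acid stress pathway were also lower, though less firmly. Of 26 measured, 8 fell and 0 rose, beside 6.13% of all tested genes that fell. The median log2 fold change was -0.52, and none of the 8 calls held whichever library was left out. Trib3, a pseudokinase induced by ATF4, was at 26.9 and 18.96 CPM in brain and 61.5, 126 and 116 CPM in subcutaneous cells (log2 -2.15, SE 0.38, adjusted p = 0.012). Sesn2, a stress inhibitor of mTORC1, was at 8.21 and 5.89 and 15.5, 25.6 and 24.7 CPM (log2 -1.65, adjusted p = 0.014). Atf4 itself was at 319 and 221 CPM in brain and 391, 533 and 564 CPM in subcutaneous cells (log2 -0.88, adjusted p = 0.0202). The remaining called members were Ddit3, Nupr1, Slc7a11, Cebpg and Vegfa, the last also a hypoxia gene. Asns, the asparagine synthetase, did not pass (log2 -0.42). The list had 4 calls without brain replicate 1, 1 without brain replicate 2, 15 without subcutaneous replicate 1 and 4 without either of the other 2.

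Interferon-stimulated genes were higher in brain tumour cells. Of 37 measured, 26 rose and 0 fell, with a median log2 fold change of 3.26, beside 8.94% of all tested genes that rose. The set held antiviral effectors (Bst2, Ifitm1, Oas1a, Rsad2, Ifit1), guanylate-binding proteins (Gbp3, Gbp7), RNA sensors (Ifih1), and regulators of the pathway (Irf7, Irf9 and the feedback protein Usp18). Irf1, Stat2 and Samhd1 were among those that did not pass, at log2 -0.30, 0.10 and -0.00. The rise held whichever library was left out in 17 of the 26, and 18 rose without either brain library, 34 without subcutaneous replicate 1 and 22 without either of the other 2.

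The interferon-stimulated response element, to which STAT and IRF complexes bind, was searched as GAAANNGAA on both strands. It stood in the 250 bases before the start of 8.18% of all genes in the promoter table and 7.29% of tested genes with an entry. Among the 29 list members with an entry it stood before 14, which were 9 of 20 called genes and 5 of 9 others; Usp18, Ifi27, Ifi27l2a, Rtp4, Zbp1, Parp14 and Mx1 were among those with no entry. The called members with the largest rises, a match and no annotated exon in the window are shown with the motif in capitals. They are Bst2 at chr8:71537473-71537722 (minus strand), Oas1a at chr5:120907526-120907775 (minus strand) and Gbp7 at chr3:142530086-142530335 (plus strand).
Bst2: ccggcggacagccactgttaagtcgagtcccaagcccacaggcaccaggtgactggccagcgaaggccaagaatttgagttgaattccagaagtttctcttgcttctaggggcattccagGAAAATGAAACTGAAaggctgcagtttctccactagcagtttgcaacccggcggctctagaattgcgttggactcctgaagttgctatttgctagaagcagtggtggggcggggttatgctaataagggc
Oas1a: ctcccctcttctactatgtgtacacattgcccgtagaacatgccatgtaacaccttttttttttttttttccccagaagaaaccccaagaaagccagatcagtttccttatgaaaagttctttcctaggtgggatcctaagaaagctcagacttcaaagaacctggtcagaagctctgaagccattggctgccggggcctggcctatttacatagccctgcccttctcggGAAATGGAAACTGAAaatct
Gbp7: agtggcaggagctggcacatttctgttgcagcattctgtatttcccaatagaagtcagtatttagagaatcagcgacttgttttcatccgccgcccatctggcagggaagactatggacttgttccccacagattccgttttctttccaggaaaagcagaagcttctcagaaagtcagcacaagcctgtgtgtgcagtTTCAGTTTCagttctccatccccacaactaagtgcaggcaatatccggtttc
Bst2 and Oas1a each held a pair of overlapping matches, which ended 121 and 115 bases before the start in Bst2 and 11 and 5 bases before it in Oas1a. Gbp7 held 1 match on the other strand, 43 bases before the start.

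Usp18, the isopeptidase that removes ISG15 and dampens interferon receptor signalling, had the largest rise of any gene that met the rule on host cells with at least 10 CPM in brain. It was at 31.7 and 41.2 CPM in the brain libraries and 1.27, 0.741 and 0.578 CPM in the subcutaneous libraries (mm10 chr6:121245906-121270917). Both brain values were far above all subcutaneous values, 42.8-fold in the fit (log2 5.42, SE 0.36, edgeR adjusted p = 0.000165). Reporter-low cells of the same brain libraries held 51.6 and 68.1 CPM. Thinned to 3000 UMIs, 6.06 and 7.55% of brain and 0.251, 0.246 and 0.127% of subcutaneous tumour cells had a Usp18 UMI, against 11.6 and 14.8% of reporter-low brain cells. With the scaled host profile subtracted the log2 fold change was 5.50 (adjusted p = 9.93e-05).

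Bst2, the tetherin that holds budding virus at the cell surface, was at 66.5 and 113 CPM in brain and 3.88, 0.306 and 0.539 CPM in subcutaneous cells (log2 5.92, SE 0.89, adjusted p = 0.00965). Its level was higher in brain replicate 2 than in brain replicate 1. Reporter-low cells of at least 1 brain library had over 3 times the Bst2 level of its tumour cells. With host RNA subtracted the log2 fold change of Bst2 was 6.29 (adjusted p = 0.00142). That step took the brain libraries to 60.2 and 112 CPM and subcutaneous replicate 1 to 2.72 CPM. It left the other subcutaneous libraries as they were. Irf7, the main amplifier of type I interferon, was at 13.5 and 13.1 CPM in brain and 1.58, 0.596 and 0.443 CPM in subcutaneous cells (log2 3.95, adjusted p = 0.00159). Ifi27, a mitochondrial interferon-induced protein, was at 132 and 175 and 37.98, 16.1 and 21.2 CPM (log2 2.62, SE 0.31, adjusted p = 0.00233). Gbp3 was at 5.44 and 7.699 and 0.216, 0.0322 and 0.0578 CPM (log2 6.09). In all of these the brain libraries lay above the subcutaneous ones. Ifitm1, a membrane protein against viral entry, was at 10.1 and 6.41 CPM in brain, 0.0719, 0.0806 and 0.0193 CPM in subcutaneous cells and 775 and 1324 CPM in reporter-low brain cells, and its log2 fold change of 7.08 became 4.43 with host RNA subtracted.

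Macrophages and microglia express most of these genes. In 22 of the 26 the reporter-low cells of at least 1 brain library had over 3 times the level of its tumour cells. The exceptions were Usp18, Ifi27, Eif2ak2 and Trim25. The 15 macrophage and microglia markers summed to 761.7 and 193 CPM in brain tumour cells and 113, 43.3 and 39.1 CPM in subcutaneous ones, 10 of the 15 rose, and none was at 0 in any library. Between the brain libraries the markers differed by a median of 5.68-fold and all 15 were higher in replicate 1. The 26 called interferon-stimulated genes differed by a median of 1.02-fold, and 12 of them were higher in replicate 2. A call favours genes that are alike in the brain libraries, while the 15 markers were taken whether called or not. The medians are therefore not of genes chosen alike, and their contrast is a description only. With host RNA subtracted, 29 of 35 measured members rose and 0 fell, with a median log2 fold change of 2.76; among tumour cells without a UMI of the 8 macrophage genes, 26 of 35 rose and 0 fell.

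**Figure D2:**
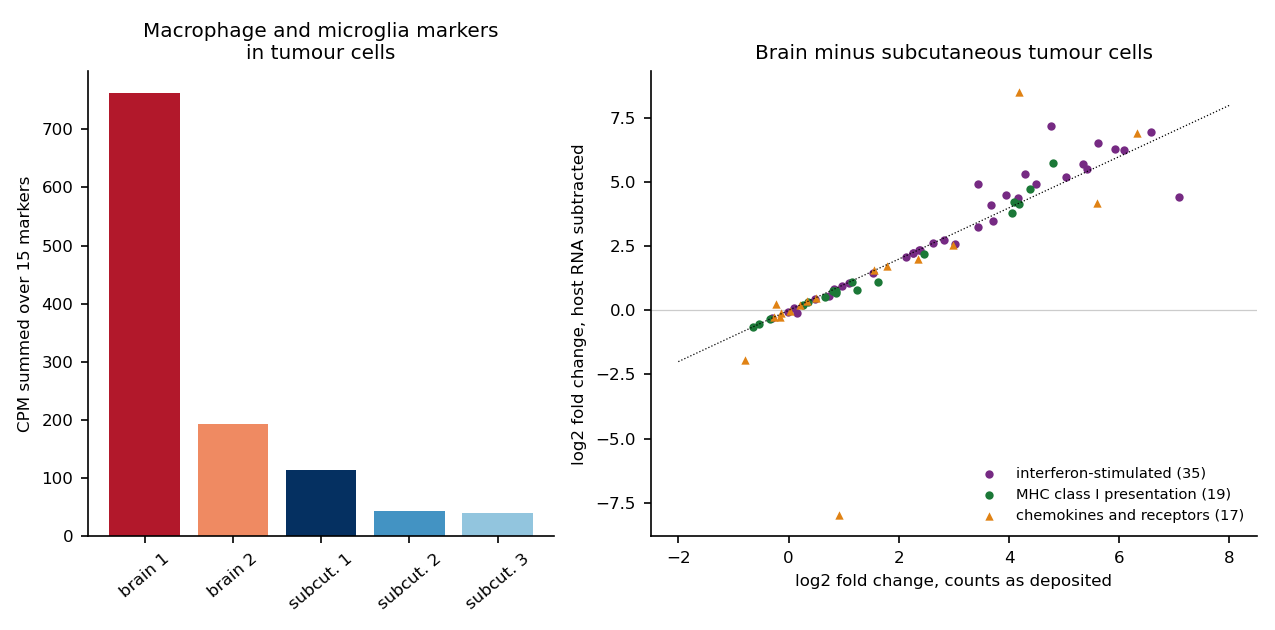
Left, CPM summed over 15 macrophage and microglia markers in the tumour cells of each library, highest in brain replicate 1 (761.7 CPM). Right, log2 fold change (brain minus subcutaneous) of the genes of 3 lists as deposited (x axis) and with the host profile subtracted (y axis), each point a gene and the dotted line equality; most interferon-stimulated genes lie near the line, Oasl2 is far above it (4.76 as deposited, 7.18 subtracted) and Ifitm1 far below it (7.08 and 4.43).

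MHC class I genes were higher in brain as well, with less support. Of 19 measured, 14 rose and 1 (Pdia3) fell, with a median log2 fold change of 0.87, beside 8.94% of all tested genes that rose. H2-K1, a classical class I heavy chain, was at 59.02 and 36.8 CPM in brain and 15.9, 5.03 and 5.34 CPM in subcutaneous cells (log2 2.46, SE 0.49, adjusted p = 0.0188). B2m, the light chain, was at 226 and 121 and 77.1, 44.4 and 46.3 CPM (log2 1.63, adjusted p = 0.00985). The heavy chain H2-D1 was at 265 and 186 and 138, 143 and 144 CPM (log2 0.67, adjusted p = 0.0282). Psmb8, a subunit of the immunoproteasome, was at 16.8 and 11.9 CPM in brain and 1.58, 0.0645 and 0 CPM in subcutaneous cells (log2 4.81, adjusted p = 0.047). The class I heavy chains are close copies of each other and reads may be shared between them. In all 14 higher genes the reporter-low cells of at least 1 brain library exceeded 3 times the level of its tumour cells. With host RNA subtracted, 13 rose and 1 fell, and any further part of host RNA was not tested. Tap2, part of the peptide transporter, was the one call that held whichever library was left out: 3 rose without brain replicate 1, 6 without brain replicate 2 and 7 without subcutaneous replicate 2 or 3. Among cells without a UMI of En1 or Des, 5 rose.

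Beyond these lists, the largest rises among genes with at least 10 CPM in brain, non-overlapping groups and at most 3 times the tumour level in reporter-low brain cells were in Nap1l5, Clca3b, Edn3, Upp1, Foxf1, AI467606, Speer4c, Pde3a, Fst, 5730409E04Rik and Gpx7. Clca3b, of the calcium-activated chloride channel regulator family, was at 50.1 and 42.4 CPM in brain and 4.03, 1.72 and 2.08 CPM in subcutaneous cells (mm10 chr3:144822623-144849357; log2 4.16, SE 0.30, adjusted p = 0.000228). After thinning, 11.8 and 10.8% of brain and 1.25, 0.557 and 0.529% of subcutaneous tumour cells had a UMI of it, and 0% of reporter-low brain cells. Edn3, the endothelin that acts on neural crest cells, was at 30.4 and 31.3 and 4.196, 2.27 and 1.695 CPM (mm10 chr2:174760619-174784042; log2 3.51, SE 0.32, adjusted p = 0.000623). For both genes the brain libraries were alike and subcutaneous replicate 1 was the highest of its group.

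Upp1, the uridine phosphorylase that frees ribose from uridine, was at 22.7 and 23.9 CPM in brain and 3.17, 2.29 and 1.41 CPM in subcutaneous cells (log2 3.35, SE 0.27, adjusted p = 0.000376). Fst, the secreted follistatin that binds activin, was at 26.8 and 23.8 and 5.49, 2.77 and 2.39 CPM (log2 2.84, SE 0.32, adjusted p = 0.0017). Nap1l5, a nucleosome assembly family gene, was at 10.2 and 9.87 and 1.199, 0.177 and 0.289 CPM (log2 4.23). These genes kept their call in every alternative in which they were tested, as did Usp18, Clca3b, Edn3 and 5730409E04Rik. Foxf1, a forkhead factor of mesenchyme, was at 14.3 and 10.7 and 3.12, 0.403 and 0.5202 CPM (log2 3.25, SE 0.75, adjusted p = 0.0275). Foxf1, Pde3a, a phosphodiesterase, and Gpx7, a peroxidase of the endoplasmic reticulum, lost the call when either brain library, subcutaneous replicate 2 or subcutaneous replicate 3 was left out, and when only the 5 libraries were fitted. Pde3a and Gpx7 also lost it with the replicate number as a block, Foxf1 and Gpx7 with no filter on low genes, and Gpx7 without cells with a UMI of En1 or Des. AI467606 lost it without either brain library or subcutaneous replicate 2 and in the fit of 5 libraries, and Speer4c, one of a family of close copies, without brain replicate 1.

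Like limits were set with the subcutaneous site as the higher one. The limit on reporter-low cells was applied in subcutaneous replicate 1 only. Replicates 2 and 3 held 44 and 22 such cells, under the minimum of 50. The largest falls outside the hypoxia list were then in Smtnl2, BC034090, Tnfrsf12a, Selenbp1, Igfbp2 and Trib3. Igfbp2, a secreted protein that binds insulin-like growth factors, was at 402 and 374 CPM in brain and 1058, 2170.0 and 1920.0 CPM in subcutaneous cells (log2 -2.15, SE 0.26, adjusted p = 0.00232). Its UMIs were in 43.3 and 33.8% of thinned brain and 57.8, 90.3 and 88.4% of thinned subcutaneous tumour cells, against 3.92 and 5.102% of reporter-low brain cells. Smtnl2, of the smoothelin family, was at 1.71 and 2.299 and 9.76, 23.3 and 16.97 CPM (log2 -3.04, SE 0.37, adjusted p = 0.00225). Selenbp1 was at 4.93 and 5.76 and 24.9, 27.00 and 19.8 CPM (log2 -2.15, adjusted p = 0.000465). Tnfrsf12a, the receptor for TWEAK, was at 12.1 and 9.69 and 27.4, 61.5 and 65.5 CPM (log2 -2.25, adjusted p = 0.00682). Tnfrsf12a and Trib3 lost the call without either brain library, BC034090 without brain replicate 1, and the hypoxia gene Stc2 without any 1 of 4 libraries. Trib3 and Stc2 also lost it with the replicate number as a block, and Stc2 in the fit of 5 libraries.

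**Figure D3:**
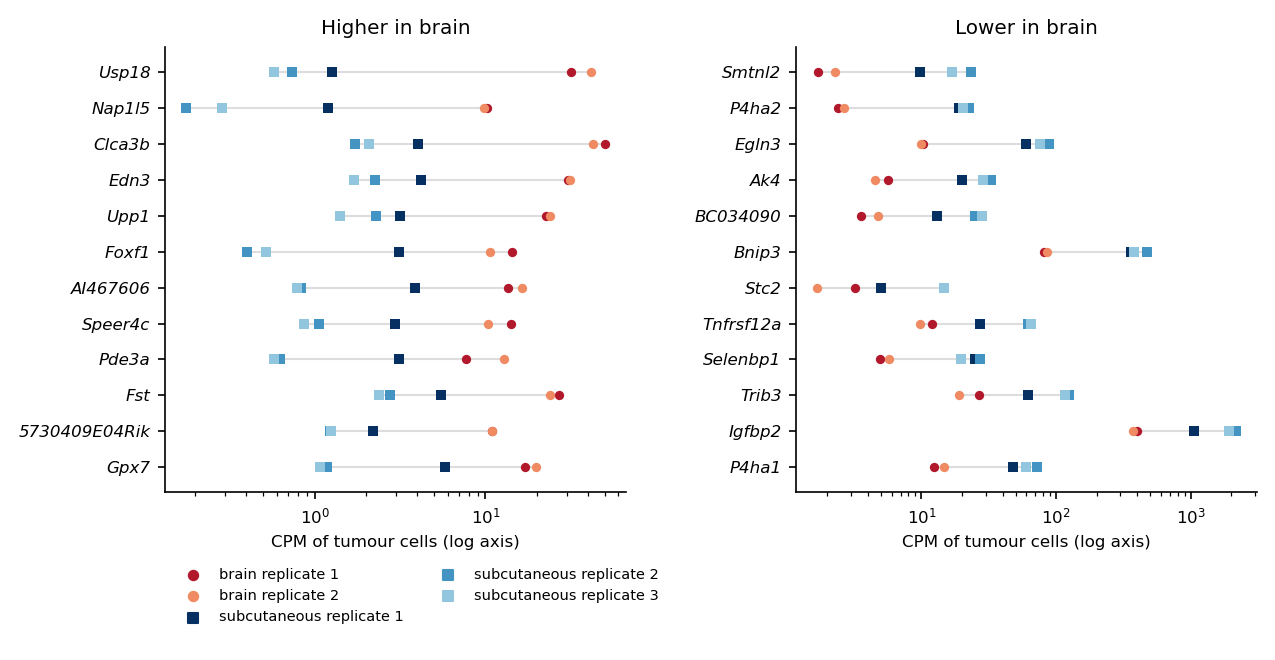
Level in tumour cells (CPM, log axis) of the 12 genes with the largest rise and the 12 with the largest fall in brain among those with at least 10 CPM in the higher site and at most 3 times that site's tumour level in its reporter-low cells, 1 point per library (circles brain, squares subcutaneous). For the falls the limit on reporter-low cells was applied in subcutaneous replicate 1 only. Groups without overlap were a condition for the choice of all 24 genes, and subcutaneous replicate 1 (darkest square) is the closest to brain in all 12 higher genes.

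The genes named for the largest differences in level, rather than in fold, were abundant ones. Ybx1, an abundant RNA-binding protein, was at 6404 and 6760.0 CPM in brain and 4583, 3408 and 3313 CPM in subcutaneous cells (log2 0.80, SE 0.15, adjusted p = 0.0114). Ndufs5, a subunit of respiratory complex I, was at 1105 and 1323 and 705, 439 and 446 CPM (log2 1.20, adjusted p = 0.00729). The tubulin gene Tuba1b was at 2144 and 2604 and 1740.0, 1532 and 1556 CPM (log2 0.56, adjusted p = 0.0192). Ybx1 lost the call without either brain library, Ndufs5 without brain replicate 2, and Tuba1b without brain replicate 2 or subcutaneous replicate 2 or 3. Beside the 8.94% of all tested genes that rose, 3 of 86 genes of oxidative phosphorylation rose and 0 fell, 2 of 83 cytosolic ribosomal protein genes rose and 0 fell, and 4 of 13 mitochondrially encoded genes rose and 0 fell (median log2 0.38). None of these 13 was called without either brain library or without subcutaneous replicate 2 or 3. On the lower side the metal-binding Mt1 was at 738 and 508 CPM in brain and 1630.0, 1381 and 1432 CPM in subcutaneous cells (log2 -1.25, SE 0.18, adjusted p = 0.00438), and the cytokine Mif, a hypoxia gene, at 1376 and 1454 and 2366, 2216 and 1954 CPM (log2 -0.62).

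Some neuroendocrine genes were higher in brain. Of 26 measured, 8 rose and 0 fell, with a median log2 fold change of 0.40, beside 8.94% of all tested genes that rose. Pcsk1, the convertase that cuts prohormones in granules, was at 72.2 and 82.98 CPM in brain and 25.8, 9.23 and 9.25 CPM in subcutaneous cells (log2 2.40, SE 0.42, adjusted p = 0.0123). Pcsk1n, the precursor of its inhibitor proSAAS, was at 108 and 106 and 37.6, 42.6 and 44.2 CPM (log2 1.36, SE 0.11, adjusted p = 0.000318). Resp18, an endocrine secretory protein, was at 45.00 and 52.9 and 16.9, 14.8 and 11.7 CPM (log2 1.76, SE 0.16, adjusted p = 0.000607), and Ptprn, a granule membrane protein, at 16.04 and 17.3 and 8.63, 8.27 and 8.48 CPM (log2 0.98, adjusted p = 0.00251). These 4 calls held whichever library was left out. Calca, the calcitonin gene, was at 130.1 and 148 and 98.5, 71.6 and 71.3 CPM (log2 0.79), and Sct, Sst and Npy, under 1 CPM in both sites, were the other calls. Pcsk1 UMIs were in 16.8 and 20.8% of thinned brain and 6.703, 2.65 and 2.79% of thinned subcutaneous tumour cells, and in 0.171 and 1.02% of reporter-low brain cells. The granule cargo gene Chga, whose levels are given above, did not pass the test (log2 -0.07, SE 0.18, adjusted p = 0.826), nor did Chgb, Scg3, Scg5, Ddc or Cpe. The list had 4 calls without brain replicate 1, 5 without any 1 of brain replicate 2, subcutaneous replicate 2 and subcutaneous replicate 3, and 12 rising and 1 falling without subcutaneous replicate 1.

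Lineage factors mostly did not pass. Of 31 measured, 2 rose (Myt1l and Neurog3) and 2 fell (Myc and Onecut2), beside 8.94% of all tested genes that rose and 6.13% that fell. The called share of 12.9% was near the 15.1% of all tested genes. Insm1, a neuroendocrine zinc finger factor, did not pass (log2 0.41, SE 0.23). Myt1l, a neuronal zinc finger factor that represses other fates, was at 8.12 and 9.38 CPM in brain and 4.51, 1.87 and 1.695 CPM in subcutaneous cells (log2 1.71, adjusted p = 0.0244). Neurog3, the endocrine progenitor factor, was at 7.47 and 10.8 and 3.26, 3.58 and 3.95 CPM (log2 1.35, adjusted p = 0.0303). Myc was at 2.905 and 1.58 CPM in brain and 6.26, 5.71 and 7.13 CPM in subcutaneous cells (log2 -1.53, adjusted p = 0.00758), and it was the one of the 4 whose call held whichever library was left out.

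The counts of neuronal structure and synapse genes stand beside the 8.94% of all tested genes that rose. Of 32 genes of axon growth and the neuronal cytoskeleton 6 rose and 0 fell, of 36 synaptic genes 3 rose and 0 fell, and of 30 neural adhesion genes 3 rose and 1 fell, with median log2 fold changes of 0.08, 0.09 and 0.06. Tubb2b, a tubulin of young neurons, was at 22.8 and 26.97 CPM in brain and 9.54, 10.1 and 6.24 CPM in subcutaneous cells (log2 1.53, adjusted p = 0.0066). Gap43, the growth cone protein, was at 151 and 189 and 130.3, 92.6 and 91.4 CPM (log2 0.70, adjusted p = 0.0355). Fez1, an adaptor for axonal transport, was at 13.9 and 18.4 and 6.14, 6.64 and 6.22 CPM (log2 1.35), with 25.2 and 122.9 CPM in reporter-low brain cells. Shank1, a scaffold of the postsynaptic density, was at 29.6 and 25.9 and 16.8, 7.77 and 7.34 CPM (log2 1.39), and Nlgn1, a synaptic adhesion molecule, at 16.3 and 13.7 and 8.18, 6.71 and 6.63 CPM (log2 1.06). Snap25, of the vesicle fusion machinery, was at 141 and 144 CPM in brain and 158, 158 and 159 CPM in subcutaneous cells and did not pass (log2 -0.15). None of the 13 calls on the 3 lists held whichever library was left out. The axon list had 2 calls without brain replicate 1, 1 without brain replicate 2, 2 without either of subcutaneous replicates 2 and 3, and 11 rising with 8 falling without subcutaneous replicate 1. Neuron markers, a list of 7 that includes Snap25, summed to 183 and 179 CPM in brain and 200, 186 and 185 CPM in subcutaneous tumour cells, most of it Snap25. Camk2a, a kinase of excitatory neurons on that list, rose, at 7.84 and 2.51 CPM in brain and 0.719, 0.806 and 0.7899 CPM in subcutaneous cells (log2 2.72, SE 0.43, adjusted p = 0.00643).

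Hox genes, which give cells their position along the body axis, split by cluster. Of 14 measured, 5 fell, all of the Hoxb cluster (Hoxb2, Hoxb4, Hoxb6, Hoxb7 and Hoxb9), and 2 rose, both of the Hoxd cluster (Hoxd9 and Hoxd10). Over all tested genes 6.13% fell and 8.94% rose. Hoxb9 was at 79.1 and 70.7 CPM in brain and 133, 179.8 and 169 CPM in subcutaneous cells (log2 -1.10, SE 0.15, adjusted p = 0.00375). Hoxd9 was at 24.3 and 23.9 and 7.03, 1.77 and 2.06 CPM (log2 2.75, SE 0.53, adjusted p = 0.0159), and Hoxd10 at 16.2 and 18.1 and 6.43, 1.11 and 1.37 CPM (log2 2.56, SE 0.68, adjusted p = 0.0424). The Hoxb9 and Hoxb2 calls held whichever library was left out; neither Hoxd call was made without either brain library. Genes of a Hox cluster lie close together and some overlap, and use of strand in the counting is not given in the sources used here.

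Tumour cells with a UMI of En1, a homeobox gene of the midbrain and hindbrain, or Des, the muscle filament desmin, were counted. They made up 27.1% and 32.9% of tumour cells in brain and 9.69%, 2.18% and 2.23% in subcutaneous tissue. The difference between the sites in this share was not tested. Subcutaneous replicate 1 had over 4 times the share of the other 2. En1 was at 44.8 and 42.4 CPM in brain and 14.5, 2.03 and 1.75 CPM in subcutaneous cells but did not pass the test (log2 2.86, SE 0.85, adjusted p = 0.0694), and Des was at 33.8 and 44.8 and 14.3, 4.69 and 3.51 CPM (log2 2.40, adjusted p = 0.0275). With all cells that had a UMI of either gene left out, 984 genes were called in place of 2099. The interferon list then had 22 of 35 rising, the hypoxia list 21 of 28 falling and the glycolysis list 15 of 22 falling, close to the full counts. Of the Hox genes 2 then fell and 2 rose, and of the epithelial genes 3 fell.

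Epithelial genes were lower in brain. Of 29 measured, 10 fell and 0 rose, with a median log2 fold change of -0.49, beside 6.13% of all tested genes that fell. F11r, the junctional adhesion molecule A, was at 66.99 and 58.4 CPM in brain and 115, 178 and 173 CPM in subcutaneous cells (log2 -1.31, SE 0.21, adjusted p = 0.00662). Krt8, a keratin of simple epithelia, was at 185 and 213 and 339.6, 366 and 404 CPM (log2 -0.89, adjusted p = 0.00593). Esrp1, a splicing factor of epithelial cells, was at 30.9 and 21.3 and 38.6, 59.6 and 66.9 CPM (log2 -1.08, adjusted p = 0.0183), and the adhesion gene Cdh1 at 11.5 and 10.7 and 15.6, 19.4 and 21.8 CPM (log2 -0.77, adjusted p = 0.0175). The other falls were in Ovol1, Grhl2, Pkp2, Marveld3, Dsp and Cgn, and Epcam did not pass (log2 -0.49). The Pkp2 call held whichever library was left out. The list had 1 call without brain replicate 1, 2 without brain replicate 2, 3 without either of subcutaneous replicates 2 and 3, and 17 falling with 1 rising without subcutaneous replicate 1.

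The counts of signalling pathways stand beside 8.94% of all tested genes that rose and 6.13% that fell. TGF-beta and BMP targets had 5 falls and 0 rises of 22 measured. Their median log2 fold change was 0.04, beside 0.00 over all tested genes. Bmp7, a BMP ligand, was at 54.5 and 50.7 CPM in brain and 89.9, 117 and 125 CPM in subcutaneous cells (log2 -1.08, SE 0.14, adjusted p = 0.00272). The BMP target Id2 was at 230.0 and 248 and 343, 466 and 476 CPM (log2 -0.84, adjusted p = 0.00945), and Bambi, a decoy receptor, at 56.7 and 39.2 and 69.4, 109.5 and 95.2 CPM (log2 -0.94). The Bmp7 call held whichever library was left out, and without either brain library the list had 1 call. Of 16 Wnt genes 2 rose and 3 fell, among them the target Axin2 at 5.12 and 5.400 CPM in brain and 12.2, 11.3 and 10.9 CPM in subcutaneous cells (log2 -1.12, adjusted p = 0.00756). Of 19 Notch genes 4 rose and 1 fell, among them Dll3, an inhibitory ligand made by neuroendocrine tumours, at 69.7 and 74.7 and 32.7, 52.2 and 46.03 CPM (log2 0.72, adjusted p = 0.0365).

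Early response genes divided. Of 27 immediate early and heat shock genes 5 rose and 3 fell, and of 24 ERK targets 5 rose and 3 fell. The lists share genes, and Junb, Fos and Egr1 were among the rises of both. In 3 rises of the first list and 4 of the second, reporter-low cells of a brain library had over 3 times the level of its tumour cells. Over all tested genes 8.94% rose and 6.13% fell. Junb, an AP-1 subunit, was at 1063 and 768 CPM in brain and 346, 235 and 275 CPM in subcutaneous cells (log2 1.68, SE 0.19, adjusted p = 0.00159), and its call held whichever library was left out. Reporter-low brain cells held 2433 and 1355 CPM of Junb. Egr1 was at 116 and 56.9 and 24.96, 18.3 and 24.7 CPM (log2 1.93, adjusted p = 0.0158) and at 451 and 171 CPM in reporter-low brain cells, and lost the call without brain replicate 1, subcutaneous replicate 2 or subcutaneous replicate 3. Phlda1, which ERK signalling raises, was at 3.87 and 2.71 and 8.56, 18.97 and 23.1 CPM (log2 -2.38, adjusted p = 0.00729) and lost the call without either brain library.

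Lipid-handling genes had 6 rises and 1 fall of 21 measured, beside 8.94% of all tested genes that rose and 6.13% that fell. All 6 rises were in genes over 3 times higher in reporter-low than in tumour cells of at least 1 brain library. Apoe, the apolipoprotein that glia and macrophages secrete, was at 239.8 and 87.2 CPM in brain, 23.5, 8.14 and 5.22 CPM in subcutaneous cells and 6552 and 5669 CPM in reporter-low brain cells (log2 3.74, adjusted p = 0.015). Fabp7, the fatty acid carrier of radial glia, was at 6.32 and 4.24 CPM in brain and 0.551, 0.4996 and 0.771 CPM in subcutaneous cells (log2 3.11, SE 0.34, adjusted p = 0.00139) and was called whichever library was left out. With host RNA subtracted the list still had 6 rises and 1 fall. It had 2 rises without brain replicate 1 and 3 without subcutaneous replicate 2. Sterol synthesis had 1 fall, in Tm7sf2 at 3.596 and 3.38 and 4.89, 5.88 and 5.32 CPM, and 0 rises of 24, at a median log2 fold change of -0.37; Fdps, which makes farnesyl diphosphate, did not pass (log2 -0.40).

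Markers of brain glia were detected in brain tumour cells. All 8 oligodendrocyte lineage markers and 7 of 8 astrocyte markers rose, beside 8.94% of all tested genes. The oligodendrocyte markers summed to 262 and 195 CPM in brain and 60.4, 62.2 and 65.6 CPM in subcutaneous tumour cells, and to 1058 and 3984 CPM in reporter-low brain cells; 3, 4 and 3 of the 8 were at 0 in the subcutaneous libraries. The astrocyte markers summed to 101 and 74.5 CPM in brain and 41.5, 42.4 and 36.8 CPM in subcutaneous tumour cells, and to 168 and 619 CPM in reporter-low brain cells. Both sums were higher in the tumour cells of brain replicate 1 and in the reporter-low cells of brain replicate 2.

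Mbp, a myelin protein gene whose locus also makes other transcripts, was at 184 and 121 CPM in brain, 31.1, 35.6 and 37.3 CPM in subcutaneous cells and 347 and 764 CPM in reporter-low brain cells (log2 2.13, adjusted p = 0.000318). Gfap, the astrocyte filament, was at 20.3 and 13.8 CPM in brain, 1.39, 0.0322 and 0.116 CPM in subcutaneous cells and 18.6 and 57.7 CPM in reporter-low brain cells (log2 5.16, adjusted p = 0.02). In brain replicate 1 Gfap was about as high in tumour cells as in reporter-low cells. Olig1, a factor of the oligodendrocyte lineage, had 0 of 155653099 UMIs in subcutaneous tumour cells and was at least 105.7-fold higher in brain ones at a limit of 3 UMIs over the group. Mog, of the myelin surface, had 62 and 0, at least 53.3-fold higher. RNA from the surrounding glia and RNA made in the tumour cells cannot be told apart here.

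Macrophage and microglia genes had large rises and were higher in brain replicate 1. The measure of host RNA was itself set on 8 of these genes. P2ry12, a microglial purine receptor, had 510 UMIs in brain and 3 in subcutaneous tumour cells, a ratio per UMI of 438 (exact 95% interval for counting error 149 to 2132). C1qa, a complement subunit, was at 97.9 and 14.3 CPM in brain, 2.45, 0.177 and 0.154 CPM in subcutaneous and 5332 and 3938 CPM in reporter-low brain cells (log2 6.02). Its log2 fold change became -2.62 with host RNA subtracted, which takes C1qa off by construction, as it is 1 of the 8 scaling genes. Chemokines and their receptors had 12 rises and 0 falls of 30 measured, beside 8.94% of all tested genes that rose. Their median log2 fold change was 1.68. As for the markers, all 12 were higher in brain replicate 1, by a median of 3.10-fold. Without brain replicate 1 there was 1 rise, without either of subcutaneous replicates 2 and 3 there were 3, and without subcutaneous replicate 1 there were 19. Cells without a macrophage UMI gave 4 rises, and subtraction gave 6 of 17 measured. Ccl5, a T cell attractant, was at 17.98 and 0.749 CPM in brain, 0.288, 0.0322 and 0 CPM in subcutaneous and 794 and 555 CPM in reporter-low brain cells (log2 6.56, adjusted p = 0.0248).

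Few proliferation genes passed the test. Of 34 genes of DNA replication and S phase 1 rose (Mcm5) and of 32 mitosis genes 1 rose (Cdc20), with 0 falls. Over all tested genes 8.94% rose and 6.13% fell. Mcm5, a subunit of the replicative helicase, was at 324 and 376 CPM in brain and 182, 171 and 169 CPM in subcutaneous cells (log2 1.01, SE 0.15, adjusted p = 0.00509), while its partner Mcm6 was at 307 and 330.1 and 231, 343 and 314 CPM (log2 0.10, adjusted p = 0.8). Cdc20, which starts anaphase, was at 323 and 334 and 200.4, 153 and 199.9 CPM (log2 0.83, adjusted p = 0.0145). Cdkn2c, an inhibitor of CDK4 and CDK6, rose from 128, 91.03 and 94.6 CPM in subcutaneous to 196 and 216 CPM in brain cells (log2 0.97, SE 0.14, adjusted p = 0.00456). The share of thinned tumour cells with at least 2 UMIs over the mitosis genes was 56.4% ± 0.752 (SD, n = 2) in brain and 52.8% ± 1.80 (SD, n = 3) in subcutaneous tissue, a difference of 3.54 percentage points (two-sided exact permutation p = 0.1, the smallest possible). At a minimum of 4 UMIs the difference was -0.124 points (exact permutation p = 1).

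**Figure D4:**
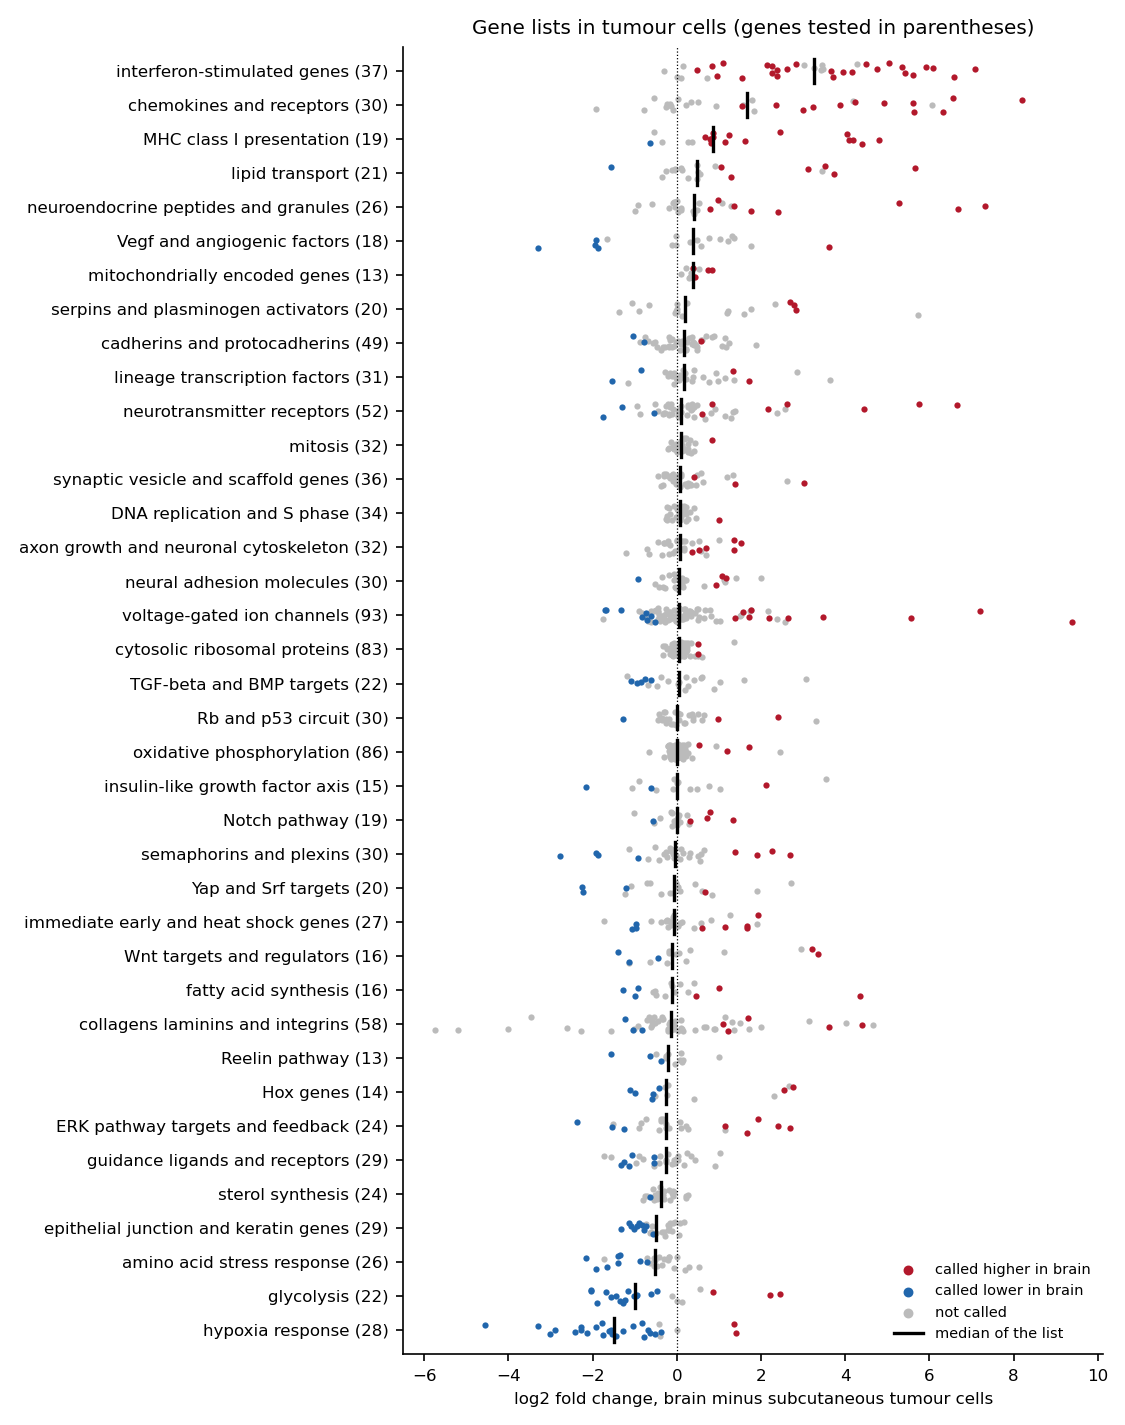
Log2 fold change (brain minus subcutaneous tumour cells) of every measured member of 38 gene lists, 1 point per gene, red called higher, blue called lower and grey not called by edgeR; the black bar is the list's median and the number in parentheses the genes measured. Interferon-stimulated genes lie farthest right (median 3.26) and hypoxia genes farthest left (median -1.50); fitted values of genes with 3 or fewer subcutaneous UMIs are no bounds.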

How the data were processed

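Droplet 3′ RNA counts of 8 allograft libraries were used. The authors deposited 1 matrix of whole-number UMI counts per library, in Cell Ranger format version 3.0.0 per the file headers; Cell Ranger, STAR and build mm10 come from the submitters' processing notes. Gene positions were looked up by identifier in GENCODE M21, for 13923 of 13931 tested genes.

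Tumour cells were chosen by the rule above, their counts were summed per library, and 22056 genes were filtered with filterByExpr to 13931. edgeR 4.0.16 in R 4.3.3 fitted TMM-scaled counts by robust quasi-likelihood in 1 model of all 8 libraries with a term per site (residual degrees of freedom 5, coefficient of biological variation 17.9%), contrasting brain with subcutaneous, with Benjamini-Hochberg adjustment over all tested genes. The SE is the log2 fold change divided by the root of F. Shares of cells with a UMI of 1 gene, and the mitosis share, used cells thinned to 3000 UMIs, leaving out 48 to 156 shallower tumour cells a brain library; shares of tumour cells, of cells with a macrophage UMI and of cells with an En1 or Des UMI were not thinned. Exact permutation used scipy 1.17.1. No doublet caller was run. Depth was 21689091 to 62047017 summed UMIs a library, so low genes are least precise in brain replicate 1, and intervals cover counting error only. The steps were checked on simulated data.

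Levels in CPM are a gene's UMIs scaled to a common total per library. The genes named were the 12 largest rises and 12 largest falls with at least 10 CPM, non-overlapping groups and a level in reporter-low cells at most 3 times that of tumour cells. For falls this last limit was applied in subcutaneous replicate 1 only. Also named were 6 rises without the limit on reporter-low cells, up to 3 genes per list at 5 CPM or more, and the 6 largest differences in CPM each way. Others named were chosen after their values were seen. A few genes that the rule names are left out here. The tumour cells, the lists and En1 and Des were chosen with earlier results of these data known. Alternatives covered DESeq2 1.42.0, other scaling and filters, other cell rules, thinning, equal cell numbers, the replicate number as a block and each library left out. Subtraction of the reporter-low profile, scaled to the median ratio over 8 macrophage genes in libraries with at least 50 such cells, and leaving out the 5% of cells with the most UMIs were chosen after seeing the data.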

Additional observations from a re-analysis of the deposited data

How the results depend on the processing

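Against 2099 calls, other tests, scalings and cell rules gave 1619 to 2702, apart from 1107 with a mean of at least 5 CPM (9594 genes tested), 728 with only the 5 libraries compared and 984 among cells without a UMI of En1 or Des. DESeq2 called 2702, host RNA subtraction left 1964, cells without a macrophage UMI 1619, and leaving out the 5% of cells with the most UMIs 2255. Leaving out 1 library gave 383 to 4754. With the replicate number as a block, 1378 genes were called. Deviations from the site mean were correlated between same-numbered libraries. They correlated at 0.24 and 0.215 for brain and subcutaneous and at -0.139 and -0.161 for brain and liver. For liver and subcutaneous they were at -0.086, -0.235 and 0.166. The deviations of the brain libraries mirror each other, so these values cannot decide whether the numbers pair the libraries. Of 130 named genes, 127 were called and 40 kept the call in every alternative in which they were tested; over 2952 pairs of gene and alternative, 2490 kept direction and call, 458 lost the call, 1 gained it and 3 reversed. The reversals were C1qa (log2 -2.62) and C1qc (-4.85) with host RNA subtracted, which takes these genes off by construction, and Rpl22l1 (-0.11) without cells with a UMI of En1 or Des, whose cause was not tested. The difference in cycling share was -0.124 points at a minimum of 4 UMIs and 1.02 points without thinning. Genes under about 1 CPM rest on few UMIs in brain replicate 1.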

Other observations

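The counts of further gene lists in the same contrast stand beside 8.94% of all tested genes that rose and 6.13% that fell. Of 93 voltage-gated channel genes 10 rose and 8 fell (median log2 0.05). Cacna1a, the pore of P/Q-type calcium channels, was at 132 and 140.5 CPM in brain and 75.2, 32.4 and 29.2 CPM in subcutaneous cells (log2 1.58, SE 0.41, adjusted p = 0.0388). Of 52 neurotransmitter receptor genes 7 rose and 3 fell. Grik3, a kainate receptor subunit, was at 9.73 and 7.11 CPM in brain and 4.700, 4.25 and 5.05 CPM in subcutaneous cells (log2 0.84), and its reporter-low values were 0 and 0.7401 CPM. Cacna1a and Grik3 each lost the call in 8 alternatives, among them the fit of 5 libraries, cells without a UMI of En1 or Des, and the omission of either brain library or of subcutaneous replicate 2 or 3.

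Guidance genes leaned the other way. Of 29 ephrins, Eph receptors, netrins, slits and their receptors 6 fell and 0 rose (median log2 -0.26), and no call held whichever library was left out. Efna3, an ephrin ligand, was at 4.57 and 4.03 CPM in brain and 6.91, 10.8 and 8.86 CPM in subcutaneous cells (log2 -1.05, adjusted p = 0.0152). Of 30 semaphorins and plexins 4 rose and 4 fell. The secreted Sema3c was at 9.87 and 11.1 and 18.4, 48.1 and 48.5 CPM (log2 -1.87, adjusted p = 0.0203). Efna3 and Sema3c each lost the call in 6 alternatives, among them the omission of either brain library or of subcutaneous replicate 2 or 3. Of 58 collagen, laminin and integrin genes, matched by symbol and so including a few neighbours such as Itgb1bp1, 5 rose and 3 fell. Col8a1, a short-chain collagen, was at 42.05 and 50.04 CPM in brain and 24.2, 17.9 and 17.7 CPM in subcutaneous cells (log2 1.21, SE 0.15, adjusted p = 0.00232), and its call held whichever library was left out.

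Of 20 serpins and plasminogen activators 3 rose, all over 3 times higher in the reporter-low cells of at least 1 brain library. With host RNA subtracted 0 were called. Of 49 cadherins and protocadherins 1 rose and 2 fell, and of 13 Reelin pathway genes 0 rose and 3 fell. Reln, which encodes reelin, did not pass (log2 1.01, adjusted p = 0.122). Of 15 insulin-like growth factor genes 1 rose and 2 fell, of 18 angiogenic factors 1 rose and 4 fell, and of 20 Yap and Srf targets 1 rose and 3 fell. Of 16 fatty acid synthesis genes 3 rose and 3 fell, and of 30 genes of the Rb and p53 circuit 2 rose and 1 fell.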
